A study of Mus musculus with 8 samples.

Results

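Il21 and 8 further genes of the follicular helper programme were followed across CCR2-/- and wild-type CD4+ T cells of the CD45RBlow and CD45RBhigh subsets. The 9 genes were Il21, Bcl6, Cxcr5, Icos, Sostdc1, Sh2d1a, Cd40lg, Ascl2 and Pou2af1, taken from the 22180 genes that the arrays measured under a single symbol. They were chosen by name, and each was represented by its brightest transcript cluster (the array's set of probes for one transcript), although each of the 9 in fact had only 1. The cells were CD4+CD25- T cells sorted from the spleens of C57BL/6 mice aged 6 to 8 weeks, all stimulated on plates coated with antibodies to CD3 and CD28. There were 4 groups of 2 arrays: CCR2-/- CD45RBlow, CCR2-/- CD45RBhigh, wild-type CD45RBlow and wild-type CD45RBhigh. CCR2 is the receptor for the chemokine CCL2, and the labels name no promoter or cell type that limits its loss. Stimulation lasted 48 h by the protocols of the samples but 2 h by the text of the series, and no unstimulated cells were among the groups.

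Follicular helper T cells are CD4+ T cells that move into the B cell follicle and help B cells form germinal centres. The repressor Bcl6 directs their development, and the chemokine receptor Cxcr5 brings them to the follicle. Their help is delivered through contact molecules and through interleukin 21, the product of Il21, which acts on B cells and on T cells alike. CD45RB is an isoform of the phosphatase CD45 that naive CD4+ T cells carry at a high level and that falls after contact with antigen, so the CD45RBlow subset is enriched for effector and memory cells.

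All values are log2 array levels. Apart from the summed linear levels of marker lists, a level is not set against that of another gene. A gene's share of such a sum is a share of array signal and not of RNA. Array medians were 4.92 to 5.05, and the 2 arrays of each group had correlations over all clusters of 0.984 to 0.994. Cd4 lay at the 98.2 to 98.7 percentile of all clusters on every array. Of the 2 CD8 T cell markers, Cd8a lay below the array median on all 8, while Cd8b1 was at 6.97 to 7.38 in CD45RBlow and 7.76 to 8.78 in CD45RBhigh cells, with no overlap (difference -0.92, limma adjusted p = 0.0776, or 0.0467 when the fit is blocked on replicate number). The part of CD8 T cells in the differences between subsets was not tested. Ccr2 levels were low throughout, 5.15 and 4.70 in CCR2-/- CD45RBlow, 4.62 and 4.75 in CCR2-/- CD45RBhigh, 4.61 and 4.52 in wild-type CD45RBlow and 4.45 and 4.26 in wild-type CD45RBhigh, so this gene did not check the genotype. Subset lay along the first principal component (45.5% of the variance) and replicate number along the second (23.5%). Xist, the RNA of the inactive X chromosome, had levels of 4.45 to 5.02 in every replicate 1 and of 11.7 to 12.1 in every replicate 2.

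The 250 bases before the transcription start were taken from RefSeq (GRCm38.p6) for 4 of the 9 genes: Il21, Bcl6, Ascl2 and Pou2af1. Those of Il21 and Pou2af1 are shown because these genes lay apart between the subsets in opposite directions. Capitals mark GGAAA, the core bound by the activation-induced NFAT factors, on either strand. Sequences run 5′ to 3′ along the gene.
Il21 chr3:37232637-37232886, minus strand: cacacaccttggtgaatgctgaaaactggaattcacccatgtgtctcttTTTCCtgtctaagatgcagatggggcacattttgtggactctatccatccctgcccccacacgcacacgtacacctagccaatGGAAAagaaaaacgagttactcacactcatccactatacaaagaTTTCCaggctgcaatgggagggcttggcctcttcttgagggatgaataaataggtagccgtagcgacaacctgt
Pou2af1 chr9:51213440-51213689, plus strand: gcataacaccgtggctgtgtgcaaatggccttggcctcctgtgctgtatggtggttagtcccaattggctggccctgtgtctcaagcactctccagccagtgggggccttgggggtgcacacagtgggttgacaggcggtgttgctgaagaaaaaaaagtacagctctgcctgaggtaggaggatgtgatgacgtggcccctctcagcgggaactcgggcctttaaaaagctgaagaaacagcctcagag
The Il21 window held 3 matches to GGAAA or its complement, starting at positions -201, -118 and -74 from the transcription start, and the Pou2af1 window held 0. Of the genes not shown, Bcl6 had windows with 1 and 3 matches, and Ascl2 had a window with 0. Whether matches go with a gene's direction between the subsets was not tested. At least 1 match was present in 55.6% and at least 3 in 6.39% of the 32851 RefSeq promoter windows of this length. The half-site TGCTGA of MAF factors had 1 match in the Il21 window, at -234, and 1 in the Pou2af1 window, at -108, with a match in 16.1% of all windows. Neither window held TGANTCA, the AP-1 motif found in 6.75% of windows, nor TTCNNNGAA, the STAT motif found in 7.02%. Matches were searched on both strands, and none of them was measured as a binding site.

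Of the 9 genes, 8 reached the 40th percentile of clusters on 2 or more arrays and were tested with limma among 13508 genes that did. Averaged over the genotypes, Il21 and Sostdc1 were higher in CD45RBlow than in CD45RBhigh cells, and 0 of the 8 were lower, with Benjamini-Hochberg adjusted p under 0.05. Over all genes, 1.1% passed as higher and 1.93% as lower. Blocking on the replicate number called 758 genes in either direction (5.61% of those tested) in place of 409 (3.03%). It added Icos as higher and Pou2af1 as lower, which made 3 of 8 higher and 1 of 8 lower, against 1.95% and 3.66% of all genes. The median difference of the 8 genes was 0.11, against -0.01 over all genes tested. Whether replicates were separate animals is not stated in the labels, and the p-values therefore cover only the spread among these arrays. Xist set replicate 1 apart from replicate 2 in every group, as male cells would differ from female cells. The labels do not say what the replicate number marks. In the main fit the spread within each group includes this difference.

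**Figure D1:**
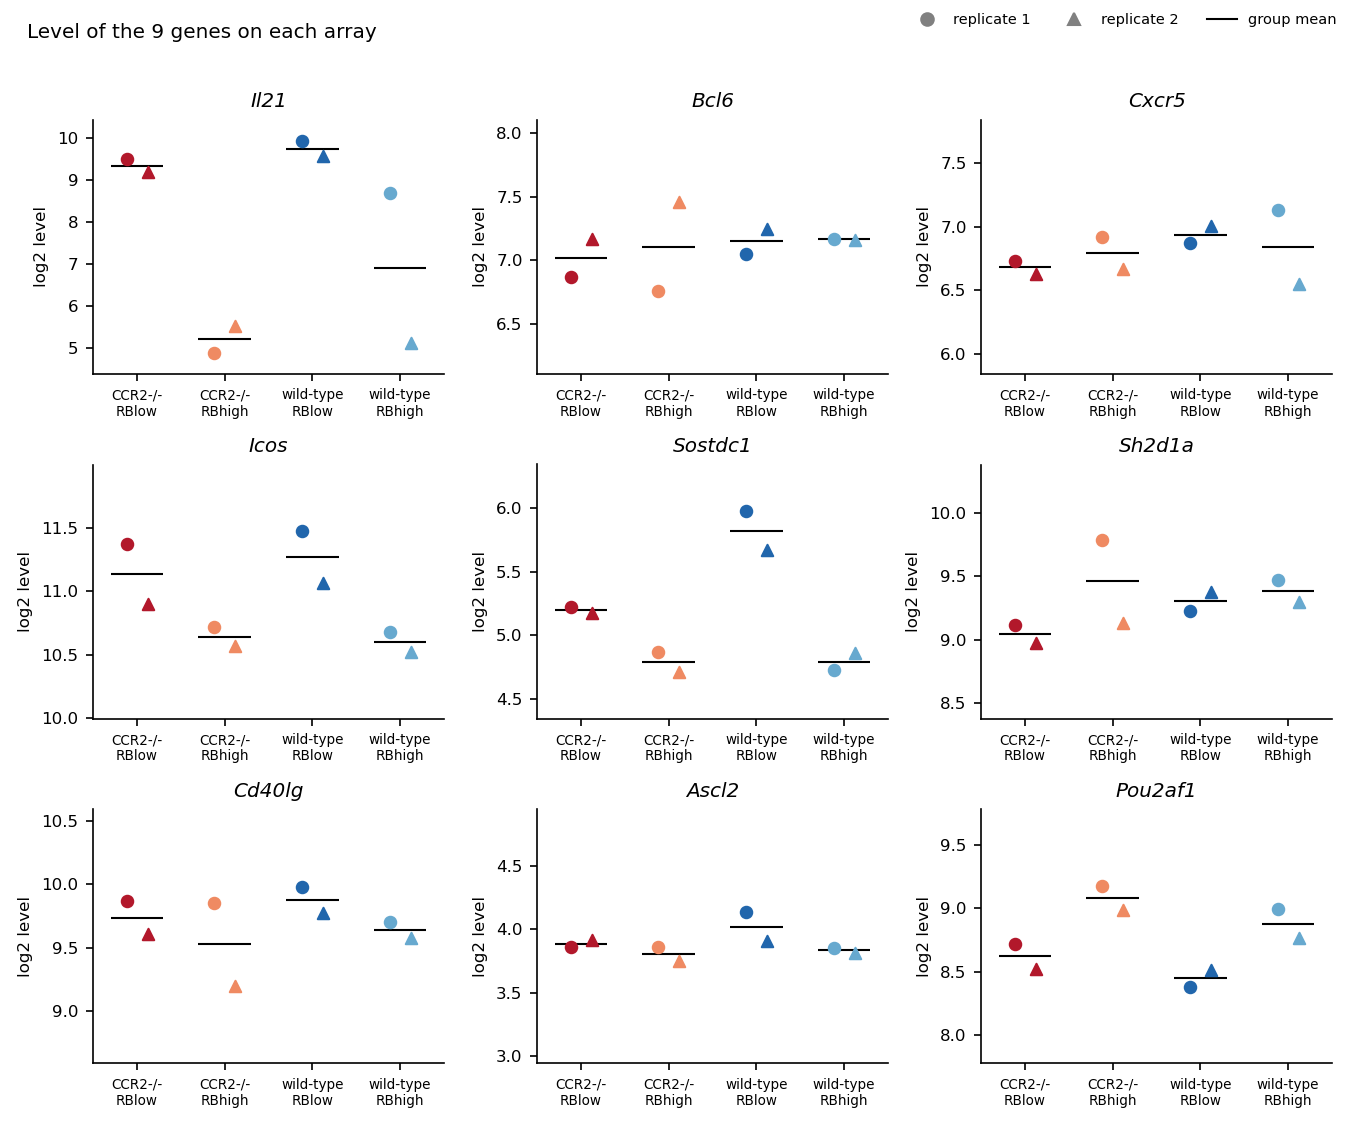
Log2 array level of each of the 9 genes on each of the 8 arrays (points), by group, with the group mean. Il21 was at 9.20 or more on all 4 CD45RBlow arrays and between 4.89 and 8.70 on the 4 CD45RBhigh arrays, while Bcl6 and Cxcr5 overlapped between the subsets.

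Il21 encodes the cytokine by which helper T cells drive B cell proliferation and plasma cell formation; the gene lies on chromosome 3 at 37222759 to 37232636 (GRCm38.p6). Its levels were 9.50 and 9.20 in CCR2-/- CD45RBlow cells, against 4.89 and 5.53 in CCR2-/- CD45RBhigh cells. They were 9.94 and 9.58 in wild-type CD45RBlow cells, against 8.70 and 5.13 in wild-type CD45RBhigh cells. All 4 CD45RBlow arrays lay above all 4 CD45RBhigh arrays, and replicate 1 of the wild-type CD45RBhigh group stood well above the other 3 of its subset. Averaged over the genotypes the CD45RBlow minus CD45RBhigh difference was 3.49 (95% interval 1.91 to 5.08), an 11.3-fold higher level. The limma adjusted p was 0.0426, or 0.0253 with the replicate block. Apart from wild-type replicate 1, the CD45RBhigh values lay at the 48.9 to 56.8 percentile of clusters, near the array median. The size of the fold thus rests partly on dim signal.

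By group mean, the order of Il21 was wild-type CD45RBlow at 9.76 ± 0.26, CCR2-/- CD45RBlow at 9.35 ± 0.21, wild-type CD45RBhigh at 6.91 ± 2.52 and CCR2-/- CD45RBhigh at 5.21 ± 0.46 (SD, n = 2 each). The 2 CD45RBlow groups did not overlap, with CCR2-/- below, as was so for 11.8% of all genes tested. Limma did not call their CCR2-/- minus wild-type difference of -0.41 (unadjusted p = 0.683). The 2 CD45RBhigh groups overlapped. The gap between the CD45RBlow and CD45RBhigh arrays of the same number was 4.61 and 3.67 in CCR2-/- cells and 1.24 and 4.45 in wild-type cells, so 3 of the 4 gaps were of like size and the gap of wild-type replicate 1 was smaller.

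The Il21 call depended on single arrays. Without wild-type CD45RBhigh replicate 1 the averaged difference was 4.39 (limma adjusted p = 8.42e-04), and without wild-type CD45RBhigh replicate 2 it was 2.60 (adjusted p = 0.00899). It missed the threshold without any one of the other 6 arrays, with adjusted p of 0.151 and 0.0980 without CCR2-/- CD45RBlow replicates 1 and 2, 0.0747 and 0.0554 without CCR2-/- CD45RBhigh replicates 1 and 2, and 0.190 and 0.121 without wild-type CD45RBlow replicates 1 and 2. In each of these 8 fits CD45RBlow remained the higher subset.

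**Figure D2:**
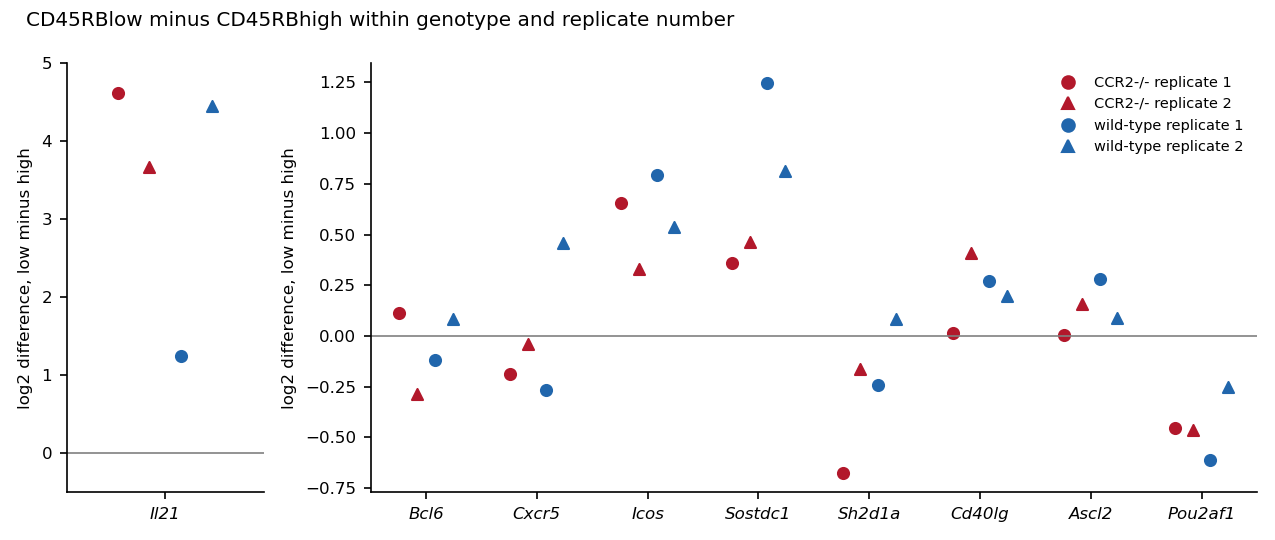
Difference in log2 level between the CD45RBlow and the CD45RBhigh array of the same replicate number, for the 9 genes in each genotype. Ascl2, among them, was not tested. For Il21 the gap was 1.24 in wild-type replicate 1 and 3.67 to 4.61 in the other 3 pairs.

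The array of wild-type CD45RBhigh replicate 1 was then examined gene by gene, a description chosen after its Il21 value was seen. Il21 lay 3.16 log2 units above the highest of the other 3 CD45RBhigh arrays there, rank 1 among the 13508 genes tested, and 18 genes lay at least 1 log2 unit above those arrays. The next were Tgm2 at 1.92, Cysltr2 at 1.47, Atp2b4 at 1.40, Il24 at 1.37 and Gpm6b at 1.37. Maf, at 4.71 on this array, lay within the 4.35 to 4.79 of the other CD45RBhigh arrays.

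Sostdc1 encodes a secreted antagonist of BMP and WNT ligands that follicular helper cells of mice also make. Its levels were 5.22 and 5.17 in CCR2-/- CD45RBlow cells, against 4.87 and 4.71 in CCR2-/- CD45RBhigh cells. They were 5.98 and 5.67 in wild-type CD45RBlow cells, against 4.73 and 4.86 in wild-type CD45RBhigh cells. The CD45RBlow arrays were higher throughout, the wild-type ones most, and the signal stayed near the array median, at the 42.6 to 62.3 percentile of clusters. The averaged difference was 0.72 (95% interval 0.49 to 0.95, limma adjusted p = 0.0157, or 0.00897 with the replicate block). It missed the threshold without CCR2-/- CD45RBlow replicate 1 (adjusted p = 0.0765), wild-type CD45RBlow replicate 1 (0.0773), wild-type CD45RBhigh replicate 1 (0.0621) or wild-type CD45RBhigh replicate 2 (0.0508).

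Icos encodes the costimulatory receptor that B cells engage through its ligand and that maintains follicular helper cells. Its levels were 11.37 and 10.90 in CCR2-/- CD45RBlow cells, against 10.72 and 10.57 in CCR2-/- CD45RBhigh cells. They were 11.47 and 11.06 in wild-type CD45RBlow cells, against 10.68 and 10.52 in wild-type CD45RBhigh cells. All CD45RBlow arrays lay above all CD45RBhigh arrays. The averaged difference of 0.58 (95% interval 0.25 to 0.91) was not called by limma, with an adjusted p of 0.0792, and was called with the replicate block, with an adjusted p of 0.0164.

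Pou2af1 encodes a coactivator of octamer-binding factors, best known from B cells and also made by helper T cells. Its levels were 8.72 and 8.52 in CCR2-/- CD45RBlow cells, against 9.17 and 8.98 in CCR2-/- CD45RBhigh cells. They were 8.38 and 8.51 in wild-type CD45RBlow cells, against 8.99 and 8.76 in wild-type CD45RBhigh cells. Each CD45RBlow array was below each CD45RBhigh array, a direction opposite to that of the other non-overlapping genes. The averaged difference was -0.45 (95% interval -0.68 to -0.22), not called by limma (adjusted p = 0.0611) unless the block was included (0.0374).

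Some B cell markers differed in the same direction as Pou2af1. Of the 12 on the list 11 had a cluster and 7 were tested. Ighm, the immunoglobulin mu chain, was lower in CD45RBlow cells by limma, 1 of 7 against 1.93% of all genes. The replicate block added Fcer2a, which made 2 of 7 against 3.66% of all genes. The Ighm call was lost without CCR2-/- CD45RBlow replicate 1 or wild-type CD45RBlow replicate 1 (highest adjusted p = 0.0773) and with the mean over its clusters in place of the brightest (difference -0.30 in place of -1.03, adjusted p = 0.307). Their summed linear level was 1019 to 1087 in CCR2-/- CD45RBlow, 2048 to 2446 in CCR2-/- CD45RBhigh, 1042 to 1195 in wild-type CD45RBlow and 1813 to 2268 in wild-type CD45RBhigh arrays. Ighm made up 76.1% to 90.2% of that sum, and the other 10 genes summed to 211 to 220 in CCR2-/- CD45RBlow, 239 to 585 in CCR2-/- CD45RBhigh, 218 to 223 in wild-type CD45RBlow and 221 to 395 in wild-type CD45RBhigh arrays. Of the tested markers that were not called, Ms4a1 did not overlap between the subsets either (difference -0.46). Its CD45RBlow values, 4.13 to 4.22, lay below the arrays' 40th percentile of 4.53 to 4.63, so it passed the filter through CD45RBhigh arrays only. Its separation thus rests partly on signal not above background. Cd79a, Cd79b and Cd22 overlapped, with Cd79a and Cd22 also below that percentile on every CD45RBlow array. Ebf1 overlapped with a difference of 0.38. Pax5, Blk, Cr2 and Vpreb3 lay below the array median on all 8 arrays. The part of B cell RNA in the Pou2af1 difference was not tested. In sorted bulk populations, fewer cells that express a gene and less RNA per cell cannot be told apart.

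Across the 4 CD45RBlow and 4 CD45RBhigh arrays, Il21, Icos and Sostdc1 did not overlap with CD45RBlow above (3 of 8), and Pou2af1 did not overlap with CD45RBlow below (1 of 8). Over all genes tested, 6.13% did not overlap with CD45RBlow above and 8.13% with CD45RBlow below. Some regulatory T cell markers differed in the same direction as the higher genes. Foxp3, Ikzf2 and Gpr83 were higher in CD45RBlow cells by limma, 3 of the 6 tested, where 1.1% of all genes were. The calls of Foxp3 and Ikzf2 held without any one array, and that of Gpr83 held in 2 of 8 such fits, those without CCR2-/- CD45RBlow replicate 2 or CCR2-/- CD45RBhigh replicate 1. Nrp1 and Lrrc32 overlapped, and Tnfrsf18 lay lower in CD45RBlow cells with no overlap (difference -0.16, limma adjusted p = 0.291). The summed linear level of the 6 was 2576 to 3203 in CCR2-/- CD45RBlow, 2503 to 2614 in CCR2-/- CD45RBhigh, 2914 to 3402 in wild-type CD45RBlow and 2387 to 2408 in wild-type CD45RBhigh arrays. Tnfrsf18 made up 56.2% to 88.8% of it, and the other 5 summed to 653 to 1303 in CCR2-/- CD45RBlow, 281 to 381 in CCR2-/- CD45RBhigh, 934 to 1491 in wild-type CD45RBlow and 297 to 344 in wild-type CD45RBhigh arrays. Their part in the differences of Il21, Sostdc1 and Icos was not tested.

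**Figure D3:**
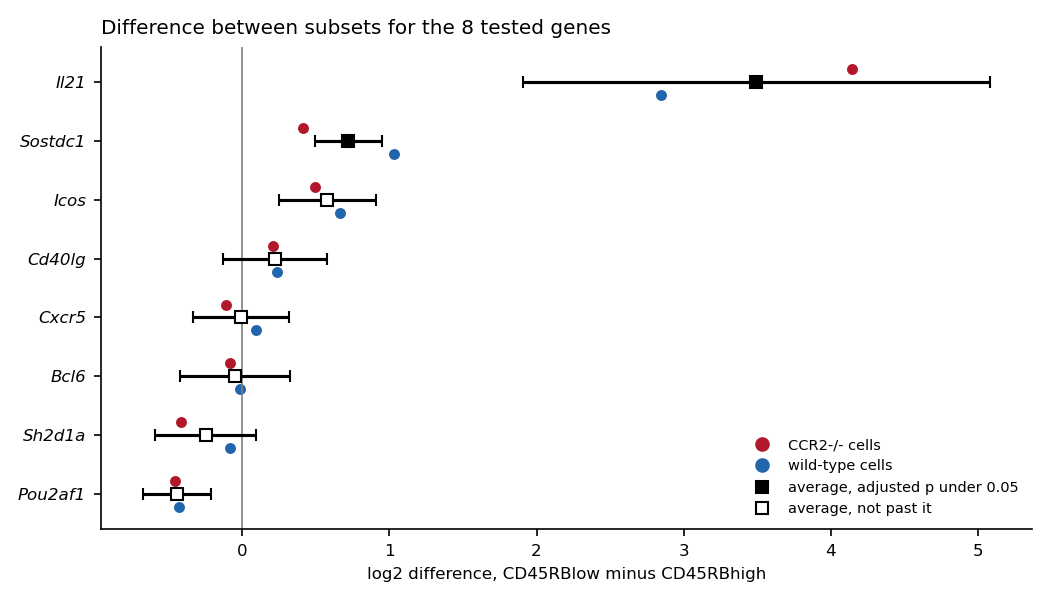
Difference in log2 level between CD45RBlow and CD45RBhigh cells, averaged over the genotypes, for the 8 tested genes, with the 95% interval from limma. Il21 at 3.49 and Sostdc1 at 0.72 were called, and the intervals of Bcl6, Cxcr5, Sh2d1a and Cd40lg include 0.

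The genes that define the follicular helper lineage overlapped between the subsets. Bcl6 was at 6.87 and 7.17 in CCR2-/- CD45RBlow, 6.76 and 7.46 in CCR2-/- CD45RBhigh, 7.05 and 7.25 in wild-type CD45RBlow and 7.17 and 7.16 in wild-type CD45RBhigh cells. Its averaged difference was -0.05 (95% interval -0.43 to 0.32, limma adjusted p = 0.917). Cxcr5 was at 6.73 and 6.63 in CCR2-/- CD45RBlow, 6.92 and 6.67 in CCR2-/- CD45RBhigh, 6.87 and 7.01 in wild-type CD45RBlow and 7.13 and 6.55 in wild-type CD45RBhigh cells. For this receptor the CD45RBlow and CD45RBhigh arrays lay intermixed, with a difference of -0.01 (95% interval -0.34 to 0.32, limma adjusted p = 0.987) whose sign turned under 2 rescalings of the arrays. These intervals do not show equal levels.

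Sh2d1a encodes SAP, the adaptor that lets SLAM-family receptors hold T cells and B cells together. Its levels were 9.11 and 8.97 in CCR2-/- CD45RBlow, 9.79 and 9.13 in CCR2-/- CD45RBhigh, 9.23 and 9.38 in wild-type CD45RBlow and 9.47 and 9.30 in wild-type CD45RBhigh cells. CCR2-/- CD45RBhigh replicate 1 was the highest array, and the subsets overlapped (difference -0.25, limma adjusted p = 0.439). Cd40lg encodes the CD40 ligand, the contact signal for B cell activation. Its levels were 9.87 and 9.61 in CCR2-/- CD45RBlow, 9.85 and 9.20 in CCR2-/- CD45RBhigh, 9.98 and 9.78 in wild-type CD45RBlow and 9.71 and 9.58 in wild-type CD45RBhigh cells. CCR2-/- CD45RBhigh replicate 2 was the lowest array, and the subsets overlapped (difference 0.22, 95% interval -0.13 to 0.58, limma adjusted p = 0.513).

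Icos and Cd40lg were higher in replicate 1 than in replicate 2 in all 4 groups, 2 of the 8 tested genes, where 9.19% of all genes tested were. Among X-linked genes, of which Cd40lg is one, 49 of 501 (9.78%) were. The levels of Icos in CCR2-/- CD45RBlow cells were 11.37 and 10.90 in replicates 1 and 2, and those of Cd40lg were 9.87 and 9.61. The part of the replicate number, with which Xist also moved, in these levels was not tested.

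Ascl2, a basic helix-loop-helix factor that raises Cxcr5 in mouse T cells, did not pass the filter. Its signal was at 3.86 and 3.91 in CCR2-/- CD45RBlow, 3.86 and 3.75 in CCR2-/- CD45RBhigh, 4.14 and 3.90 in wild-type CD45RBlow and 3.85 and 3.81 in wild-type CD45RBhigh cells. All 8 values fell between the 1.48 and 17.2 percentile of clusters, a range in which an array signal is not a level above background.

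Within CCR2-/- cells, 0 of the 8 genes were called between the subsets by limma, where 0.333% of all genes were. The CD45RBlow minus CD45RBhigh difference there was 4.14 for Il21 (adjusted p = 0.137), 0.49 for Icos, 0.41 for Sostdc1 and -0.46 for Pou2af1. Within wild-type cells 0 of the 8 were called, where 0.0888% of all genes were, and the differences were 2.85 for Il21 (adjusted p = 0.402), 1.03 for Sostdc1 (adjusted p = 0.0610), 0.66 for Icos and -0.43 for Pou2af1. With the replicate block Sostdc1 was called in wild-type cells (adjusted p = 0.0284), where 0.77% of all genes were. Without wild-type CD45RBhigh replicate 1 the wild-type difference of Il21 was 4.63, with a limma adjusted p of 0.0126. The fit pools the spread of all groups, so the CCR2-/- difference of Il21, 4.14 throughout, passed when either wild-type CD45RBhigh array was left out (adjusted p = 0.00534 for each) or when the CCR2-/- arrays were fitted alone (0.0187). Likewise, Sostdc1 passed in wild-type cells without either CCR2-/- CD45RBhigh array (adjusted p = 0.0423 for each).

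Between the genotypes, 0 of the 13508 genes passed in limma in either subset, averaged over the subsets, or in the interaction. Unadjusted p was under 0.05 for 298 genes (2.21%) in CD45RBlow cells, 354 (2.62%) in CD45RBhigh cells, 521 (3.86%) on average and 160 (1.18%) in the interaction. Sostdc1 was among those of CD45RBlow cells, at 5.22 and 5.17 in CCR2-/- against 5.98 and 5.67 in wild-type cells. The 2 groups did not overlap, as was so with CCR2-/- below for 11.8% of all genes. The difference was -0.62 in CD45RBlow cells (unadjusted p = 0.00226, limma adjusted p = 0.9998) and -0.0039 in CD45RBhigh cells, and the difference between these 2 differences was -0.62 (unadjusted p = 0.0138, adjusted p = 0.9998).

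For Il21 the CCR2-/- minus wild-type difference was -0.41 in CD45RBlow cells and -1.70 in CD45RBhigh cells, and the interaction was 1.29 (limma adjusted p = 0.9998). The CD45RBhigh value rested on the wild-type pair at 8.70 and 5.13. It was 0.08 without wild-type CD45RBhigh replicate 1 and -3.49 without replicate 2, and the interaction was -0.49 and 3.08 in those fits.

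The genes whose 8 values lay nearest to those of Il21, each centred on its own mean, were Ahr, Gpm6b, Tnfrsf8, Il24, Lilrb4a, Atp2b4, Il10 and Akr1c18. Their root mean square difference from Il21 was 0.865 log2 units for Ahr, 0.882 for Gpm6b, 0.900 for Tnfrsf8, 0.921 for Il24, 0.925 for Lilrb4a, 1.02 for Atp2b4, 1.04 for Il10 and 1.06 for Akr1c18. Correlations with Il21 over the 8 arrays, which share the 4 groups, were between 0.86 and 0.98. Ahr encodes the aryl hydrocarbon receptor, a ligand-activated factor, Tnfrsf8 encodes the receptor CD30, and Il10 and Il24 encode cytokines of the same family. Ahr was at 9.05 and 8.58 in CCR2-/- CD45RBlow, 5.32 and 5.76 in CCR2-/- CD45RBhigh, 8.43 and 8.41 in wild-type CD45RBlow and 6.80 and 5.71 in wild-type CD45RBhigh cells. Wild-type CD45RBhigh replicate 1 was the highest CD45RBhigh array for Ahr too. Ahr was chosen for its likeness to Il21 over these arrays, that one among them, so this is no separate observation. The genes nearest to Sostdc1 were Klk1b9, Foxb1 and Unc13b, all dim. Klk1b9 and Foxb1 passed the filter through their CD45RBlow arrays and were below the 40th percentile on every CD45RBhigh array, Foxb1 at the 9.87 to 16.2 percentile, so their likeness to Sostdc1 rests partly on signal not above background and no distance is given.

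**Figure D4:**
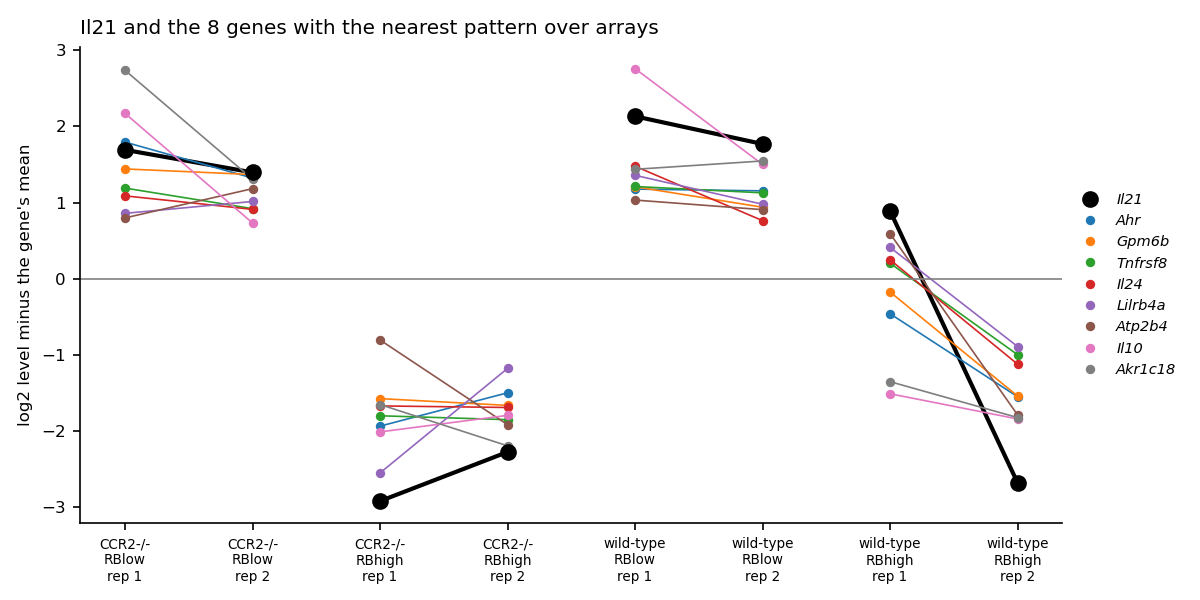
Log2 levels of Il21 and of the 8 genes nearest to it on each array, each centred on its own mean over the 8 arrays. The genes were chosen for this likeness, with root mean square differences of 0.865 to 1.06.

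Of 12 transcription factors that favour follicular helper cells, 11 were tested and 1 rose in CD45RBlow cells, where 1.1% of all genes did. This was Maf, a factor that drives Il21 and Il4 transcription. It was at 7.27 and 6.84 in CCR2-/- CD45RBlow, 4.79 and 4.35 in CCR2-/- CD45RBhigh, 7.38 and 7.01 in wild-type CD45RBlow and 4.71 and 4.47 in wild-type CD45RBhigh cells, with no overlap of the subsets. The averaged difference was 2.54 (limma adjusted p = 0.00183). Its lowest CD45RBhigh value, 4.35, was at the 29.2 percentile of clusters, so the size of this difference rests partly on signal near background. The median over the 11 genes was 0.18, against -0.01 over all genes tested.

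Of 12 genes that restrain the programme, all tested, 2 rose and 1 fell (median 0.09), against 1.1% and 1.93% of all genes. Prdm1, whose product Blimp-1 opposes Bcl6, was at 6.57 and 6.23 in CCR2-/- CD45RBlow, 4.77 and 4.81 in CCR2-/- CD45RBhigh, 7.12 and 6.45 in wild-type CD45RBlow and 5.16 and 4.94 in wild-type CD45RBhigh cells. Its lowest CD45RBhigh value, 4.77, was at the 45.3 percentile of clusters, so the size of its difference rests partly on dim signal. Prdm1 and Id2, an inhibitor of E-protein factors, were higher in CD45RBlow by 1.67 and 1.56 (limma adjusted p = 0.00586 for each). Id3, a related inhibitor, fell by 0.51 on the log2 scale (adjusted p = 0.0245). Its call held without CCR2-/- CD45RBhigh replicate 1 or 2 and was lost without any one of the other 6 arrays (highest adjusted p = 0.142).

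Of 15 further surface and secreted genes, 14 were tested and 2 rose (median 0.25), where 1.1% of all genes did. Tnfsf8, the ligand of CD30, was higher by 0.78 (limma adjusted p = 0.0392) and Ctla4, an inhibitory receptor, by 1.13 (adjusted p = 0.0488). With 1 array left out, Tnfsf8 was called when that array was CCR2-/- CD45RBhigh replicate 2 and Ctla4 when it was wild-type CD45RBhigh replicate 1, and neither was called in the other 7 fits. Pdcd1, which encodes the inhibitory receptor PD-1 of follicular helper cells, differed by 0.75 without passing (adjusted p = 0.185), and passed without CCR2-/- CD45RBhigh replicate 2 (0.0318).

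None of the 6 tested SAP and SLAM receptor genes was called (median 0.04), where 3.03% of all genes were. The smallest p-values belonged to Slamf1 at 0.31 (limma adjusted p = 0.0991) and Fyn at -0.24 (adjusted p = 0.140). None of the 5 tested genes of interleukin 21 receptor signalling was called (median -0.11). Socs1, the feedback inhibitor of cytokine receptors, differed by 0.64 (adjusted p = 0.0952, or 0.0118 without CCR2-/- CD45RBhigh replicate 2, or 0.0402 once blocked on replicate number), and Il21r, the receptor itself, by -0.32 (adjusted p = 0.15). Of 5 tested genes of T zone homing and follicle exit, 2 fell (median -0.20), where 1.93% of all genes did. Ccr7, the receptor that keeps T cells in the T zone, fell by 0.94 (adjusted p = 0.0303) and Selplg by 0.41 (adjusted p = 0.0406). The Ccr7 call held without CCR2-/- CD45RBhigh replicate 1 or 2 and was lost without any other array, and that of Selplg was lost without any one array (adjusted p from 0.0582 to 0.203).

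All 13 helper cytokine genes were tested and 5 rose in CD45RBlow cells (median 0.79), where 1.1% of all genes did. Il4, the other main cytokine by which follicular helper cells act on B cells, was at 7.97 and 7.46 in CCR2-/- CD45RBlow, 5.35 and 5.25 in CCR2-/- CD45RBhigh, 7.16 and 6.58 in wild-type CD45RBlow and 5.66 and 5.37 in wild-type CD45RBhigh cells. The subsets did not overlap, and the averaged difference was 1.89 (limma adjusted p = 0.00441). Il10, a cytokine that restrains inflammation, was higher by 3.58 (limma adjusted p = 0.00749), Il9 by 2.98 (0.0392), Il13 by 2.07 (0.0437) and Il5 by 0.82 (0.0286). The lowest CD45RBhigh values of Il10, Il9 and Il4 were at the 47.7, 49.6 and 53.1 percentile of clusters, near the array median. The sizes of their differences thus rest partly on dim signal. Il5 overlapped between the subsets, at 4.62 to 5.62 in CD45RBlow and 4.24 to 4.65 in CD45RBhigh cells. Its CD45RBhigh values lay near or below the arrays' 40th percentile of 4.53 to 4.63. The calls of Maf, Prdm1, Id2, Il4 and Il10 held without any one array. That of Il5 held without any one CCR2-/- array and was lost without any one wild-type array. That of Il13 held without CCR2-/- CD45RBhigh replicate 1 or 2 and was lost without any other array, and that of Il9 held without CCR2-/- CD45RBlow replicate 2 or CCR2-/- CD45RBhigh replicate 2 and was lost without any other array.

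**Figure D5:**
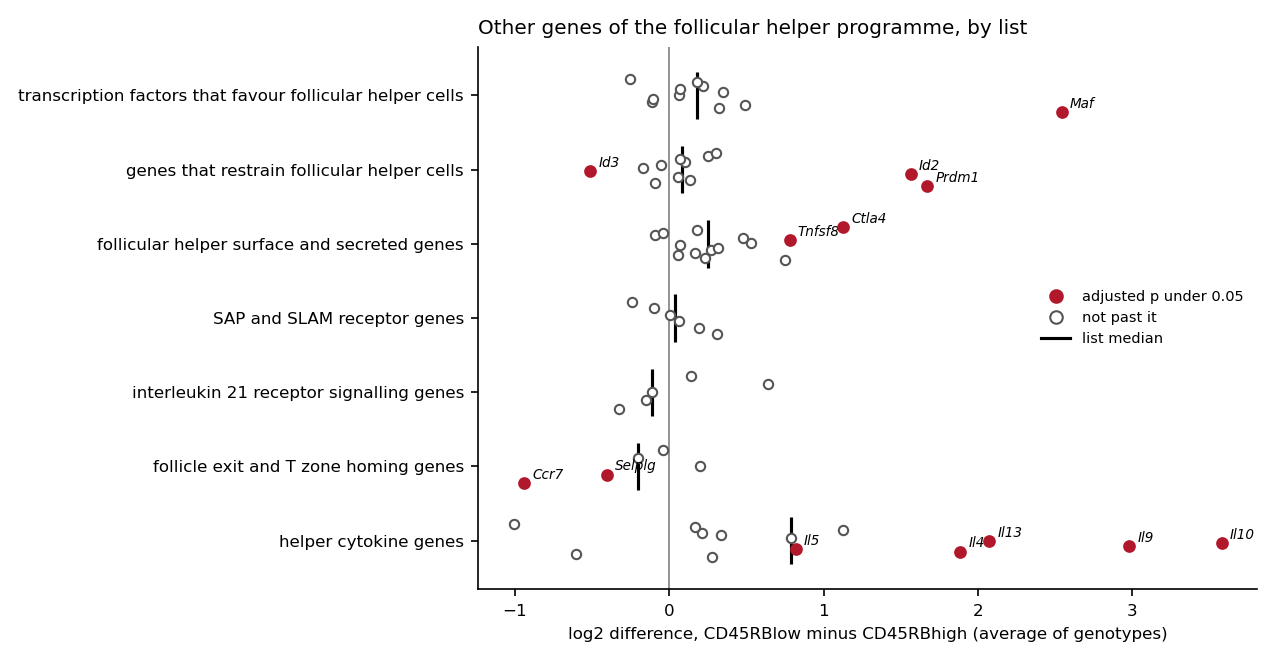
Difference in log2 level between CD45RBlow and CD45RBhigh cells, averaged over the genotypes, for each tested gene of 7 lists around the follicular helper programme (points), with list medians (bars). Called genes are filled and named, and the helper cytokines reach furthest, with Il10 at 3.58.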

How the data were processed

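Biotin-labelled cDNA from 200 ng of total RNA was hybridised to 8 Affymetrix whole-transcript arrays, per the labels' protocols. The values, as deposited, are on a log2 scale and cover 41034 clusters. Per the submitters' processing notes the authors used RMA and Partek, with no version given. RMA brings arrays towards a common distribution, so a shift shared by most genes would largely not show. The deposited values were close to this but not equal, with array medians of 4.92 to 5.05. The arrays' number limits the precision.

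The platform annotation gave 1 symbol to 23521 clusters and several to 1814, which were left out, and 15699 were unnamed here. The brightest cluster stood for each gene. A mean per group was fitted by limma (version 3.58.1, R 4.3.3), with 4 residual degrees of freedom. Two-sided p-values were adjusted over 13508 genes by Benjamini-Hochberg, at a threshold of 0.05. The fit was tested on simulated data with independent noise on each array and no replicate effect. That test therefore does not bear on the pairing of arrays by replicate number. Groups came from the sample titles, and titles without a number were taken as replicate 1. Replicate numbers paired the arrays: the 6 correlations between groups of the replicate 2 minus replicate 1 difference were 0.11 to 0.53, over the limit of 0.1. The main fit did not include this pairing, and the fit blocked on replicate number is given as an alternative.

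The 9 genes, the lists and the naming rule were chosen with earlier results of these data known. Named were the 9 genes, the 8 nearest to Il21 and the 3 nearest to each other gene spanning at least 1 log2 unit, and up to 4 called genes of a list, or the 2 with the smallest p. Il13, Pdcd1 and the genes raised on wild-type CD45RBhigh replicate 1 were named after their values were seen. Alternatives were other scaling, filters, gene summary, intensity trend, array weights, the replicate block, fits on 2 groups, and leaving out each array.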

Additional observations from a re-analysis of the deposited data

Results flagged for a closer look

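For 4 of the 34 tested genes named by rule (11.8%), both CCR2-/- arrays of CD45RBlow cells lay to one side of both wild-type arrays and those of CD45RBhigh cells to the other side, as was so for 344 of all 13508 genes tested (2.55%). The named genes include those picked for their likeness to Il21 and Sostdc1. The CCR2-/- minus wild-type difference in CD45RBlow cells exceeded that in CD45RBhigh cells by 1.06 for Il4 (0.85 and -0.22) and by 1.09 for Gpm6b (0.33 and -0.76). It was below it, by a difference of -0.18, for Fyn (-0.06 and 0.12) and by -0.51 for Foxb1 (-0.46 and 0.05). The CD45RBhigh values of Foxb1 lay at the 9.87 to 16.2 percentile of clusters, not above background, so its opposite sign is not a measured difference. The interaction was tested with limma for each, and none passed (adjusted p = 0.9998).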

How the results depend on the processing

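The averaged subset comparison called 409 genes, 758 with the replicate block and 39 to 524 with 1 array left out. Of the 8 tested follicular helper genes 2 were called, 4 with the replicate block, 1 without the filter, 1 with array weights and 0 to 1 with 1 array left out. In CCR2-/- cells 45 genes passed, 83 after centring each array on its median, 196 with the replicate block, 69 with an intensity trend, 7 with array weights, 9 with only the groups compared and 1 to 84 with 1 array left out, and of the 8 genes 0, or 1 with only the groups compared and 0 to 1 with 1 array left out. In wild-type cells 12 passed, then 24, 104, 31, 116, 36 and 1 to 54, and of the 8 genes 0, or 1 with the replicate block, 1 with array weights and 0 to 1 with 1 array left out. Signs turned for the averaged subset difference of Cxcr5 (0.019 after quantile normalization, 0.0085 after centring, -0.16 to 0.14 with 1 array left out) and of Bcl6 (-0.23 to 0.12), and between genotypes in CD45RBhigh cells for Sostdc1 (-0.083 to 0.075) and Il21 (-3.49 to 0.083), as in the Il21 interaction (-0.49 to 3.08). Without the filter, the calls of Il13 (limma adjusted p = 0.0633), Gpr83 (0.0679), Tnfsf8 (0.0519), Ctla4 (0.0679) and Il9 (0.0568) were lost. The call of Ctla4 was lost with array weights too (0.0667), and that of Selplg after centring (0.0693). Under the 60th percentile filter Pou2af1 passed (0.0486), while Sostdc1 reached that percentile on too few arrays and was no longer tested. The Il21 call was also lost without the filter (adjusted p = 0.0627) and with array weights (0.0578), and held in 8 of 16 alternatives. Beside the calls given, the replicate block changed only that of Atp2b4 (adjusted p = 0.0437) in the averaged comparison among the named genes. Where an array is left out, its partner is assumed to vary like the other groups. The cause of these changes was not tested.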
